A study of Homo sapiens with 8 samples.

Results

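The 9 genes described here encode UDP-glucuronosyltransferases (UGTs): UGT2B7, UGT2B10, UGT2B11, UGT2B15 and UGT2B17 of the UGT2B subfamily, UGT1A1, UGT1A6 and UGT1A10 of the UGT1A locus, and UGT8. They were chosen from a gene table of 30755 genes because UGT2B17 and UGT2B15 were higher in HNF4A knockdown libraries, so the contrast used for the choice is given below as a description, with no test of any member. All 9 were in the table, among 19 UGT genes in all. RNA was measured in ESO26, an established esophageal adenocarcinoma cell line, in 2 libraries of cells in which HNF4A was knocked down with siRNA (siHNF4A 1 and 2) and in 2 control libraries (control 1 and 2). The cells were grown in serum-containing RPMI-1640, and the labels give neither the siRNA sequences, nor the control treatment, nor the time of harvest. They also do not say whether the 2 libraries of a group came from separate cultures or, for siHNF4A, from the same siRNA, and the series' design text speaks of triplicates where 2 libraries a group are analysed here, so every spread and p-value measures only the difference between these libraries, which may be technical or, for siHNF4A, a difference between siRNAs. HNF4A is a nuclear receptor that acts as a transcription factor in liver, intestine and gastric-type epithelium. The 2 ChIP-seq and 2 4C libraries of the study are not used here.

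UGT enzymes sit in the membrane of the endoplasmic reticulum and transfer glucuronic acid from UDP-glucuronic acid to small lipophilic molecules such as bilirubin, bile acids, steroid hormones and drugs. The product is more water-soluble and leaves the cell through export pumps. The UGT1A enzymes are made from 1 locus in which each enzyme has its own first exon and promoter and all share the later exons, whereas each UGT2B enzyme has a gene of its own in a cluster of similar copies. UGT8 is the exception in function: it transfers galactose from UDP-galactose to ceramide, the first step toward the galactolipids of myelin and some epithelia. Liver and intestine are the main sites of glucuronidation.

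The promoters of 3 members are shown first, 1 of a gene that was higher after knockdown, 1 of a gene that was lower and 1 of a gene near 0. RefSeq promoter windows (GRCh38.p14, 250 bases before to 50 bases from the start on) were found for 7 of the 9 members. UGT2B17 and UGT1A10 had no entry. The 250 bases before the start are printed 5′ to 3′ on the gene's strand for UGT2B15, which was higher after knockdown (chr4:68670653-68670902, minus strand), for UGT2B10, a gene of the same cluster that stayed near 0 (chr4:68815744-68815993, plus strand), and for UGT1A1, which was lower (chr2:233760020-233760269, plus strand). Capitals mark matches, on either strand, to the 6 motifs whose letters stand in the next paragraph.
UGT2B15: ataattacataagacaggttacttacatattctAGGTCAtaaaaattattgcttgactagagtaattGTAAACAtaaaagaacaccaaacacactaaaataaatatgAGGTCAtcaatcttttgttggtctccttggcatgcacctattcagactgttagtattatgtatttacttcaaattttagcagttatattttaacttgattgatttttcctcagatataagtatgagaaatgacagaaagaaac
UGT2B10: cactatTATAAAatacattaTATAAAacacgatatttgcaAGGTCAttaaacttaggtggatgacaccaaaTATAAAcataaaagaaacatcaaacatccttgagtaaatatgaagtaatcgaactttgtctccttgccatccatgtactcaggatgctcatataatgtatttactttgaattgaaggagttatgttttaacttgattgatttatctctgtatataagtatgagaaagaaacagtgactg
UGT1A1: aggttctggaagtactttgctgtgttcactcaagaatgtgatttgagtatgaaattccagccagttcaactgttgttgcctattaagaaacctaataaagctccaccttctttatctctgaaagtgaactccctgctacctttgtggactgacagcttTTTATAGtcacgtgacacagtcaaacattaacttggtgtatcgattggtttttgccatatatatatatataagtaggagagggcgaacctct

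The motifs were picked with these sequences in view. They were the nuclear receptor hexamer AGGTCA, found in 13.8% of all 35116 RefSeq windows of the same length, the HNF4 elements CAAAGTCCA (0.384%) and CAAAGTTCA (0.296%), the forkhead element TGTTTAC (3.42%), the TATA element TATAAA (11.5%) and the CDX element TTTATNG (9.73%), each searched on both strands. UGT2B15 held AGGTCA 217 and 143 bases before its start and the forkhead element, on the other strand, at 183 bases. UGT2B10 held AGGTCA at 210 bases and TATAAA at 244, 230 and 179 bases, and UGT2B11 held AGGTCA at 214 bases and TATAAA at 248 and 183 bases. In UGT1A1 the CDX element at 92 bases overlapped a TATAAA match on the other strand at the same position. Only the exact letters are marked, so TATA-like stretches with other letters nearer the starts are not. Neither HNF4 element matched in any of the 10 member windows, which says only that these letters are not in these windows. The windows of UGT2B10 and UGT2B11 were 90.1% identical in a global alignment, and that of UGT2B15 was 69.4% identical to UGT2B10, 70.6% to UGT2B11 and 65.4% to UGT2B7. Identity within the UGT1A locus varied by pair. The UGT1A1 window was 52.0% and 50.6% identical to the 2 windows of UGT1A6. The windows of UGT1A5 and UGT1A4 were 89.7% identical, and those of UGT1A4 and UGT1A3 88.0%.

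The values are normalized counts as deposited, which are not scaled by gene length, so levels are compared between libraries and not between genes. Their totals per library ran from 17912507 to 18613685, and these totals divided by the value of 1 UGT2B17 read, derived below, imply read depths of 1, 1.12, 1.34 and 1.19 relative to control 1 for control 1, control 2, siHNF4A 1 and siHNF4A 2. The HNF4A knockdown itself was visible: HNF4A had control values of 4129 and 3937 and knockdown values of 1140 and 932, a log2 difference of -1.97 (adjusted p = 1.59e-05 by limma across 15577 genes with a mean of at least 10). All 7 epithelial adenocarcinoma markers were between 4296 and 30712 in every library and summed to 94007 to 102106. Their levels also differed between the groups without overlap: EPCAM was at 30669 and 30712 in the controls and 25123 and 25094 after knockdown, KRT8 and KRT18 were likewise lower after knockdown, and KRT19, CDH1 and CDH17 were higher, while VIL1 overlapped. Hepatocyte markers, which would mark another UGT-rich cell type, summed to 69.4 to 88.6, nearly all of it SERPINA1, and albumin (ALB) was at 0 in both controls and below 2 normalized counts in each knockdown library. The squamous markers summed to 36.2 or less, with differences in opposite directions: KRT14 was at 0.64 and 2.29 in the controls and at 12.2 and 25.7 after knockdown, and KRT5 at 32.6 and 12.1 and then at 6.14 and 10.5. The fibroblast markers to 122 to 223 and the leukocyte markers to 29.8 to 66.5. The endothelial markers summed to 24.6 and 15.2 in the controls and to 64.0 and 47.2 after knockdown, and moved with the groups through VWF at 8.55, 6.68, 47.5 and 36.4. The part of these markers in the results below was not tested.

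Across all genes, 2202 of the 15577 tested were past an adjusted p of 0.05 (14.1%), 938 of them higher in the knockdown (6.02%) and 1264 lower (8.11%). Rescaling to equal totals changed the split of these calls from 42.6% to 52.9% higher, and quantile normalization to 50.4%. The number of calls was 1101 without siHNF4A 1 and 1013 without siHNF4A 2. Of the 9 members, 6 passed the filter on low values. In 5 of the 6 tested members the groups did not overlap, 4 higher and 1 lower, where 57.0% of all tested genes had groups that did not overlap. The median log2 difference of the 6 was 0.33, against -0.0073 over all tested genes. These counts rest on the contrast that chose the members and support nothing about them.

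UGT2B17, which conjugates testosterone and dihydrotestosterone, was the member with the largest difference. Control 1 had 81.9 normalized counts and control 2 had 60.0, against 289 in siHNF4A 1 and 252 in siHNF4A 2. Both knockdown values lay above both control values; in bulk RNA, more cells with the transcript and more transcript per cell cannot be told apart. The means were 70.9 ± 15.5 (SD, n = 2) and 270.4 ± 25.8 (SD, n = 2), a ratio of 3.81 and a log2 difference of 1.93 (SE 0.20). By size of log2 difference UGT2B17 was 54th from the highest of the 15577 genes.

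UGT2B15 encodes a closely related enzyme of androgen conjugation and lies next to UGT2B17 in the UGT2 cluster. It was at 37.9 and 34.4 in the controls and at 94.4 and 89.1 after knockdown. The groups were separated here too, and the spread within each group was small beside the gap, with means of 36.2 ± 2.43 (SD, n = 2) and 91.8 ± 3.76 (SD, n = 2). The ratio was 2.54 and the log2 difference 1.32 (SE 0.24), which ranked 154th from the highest.

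Because UGT2B15 and UGT2B17 are similar in sequence, reads of one can be counted for the other, and their sum is given as well. The control sums were 119.7 and 94.4 and the knockdown sums 383 and 341, or 107 ± 17.9 and 362 ± 29.6 (SD, n = 2 each). The sum was thus 3.38-fold higher after knockdown, a log2 difference of 1.76 (SE 0.19). How reads that match both copies were counted is not given in the sources used here.

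**Figure D1:**
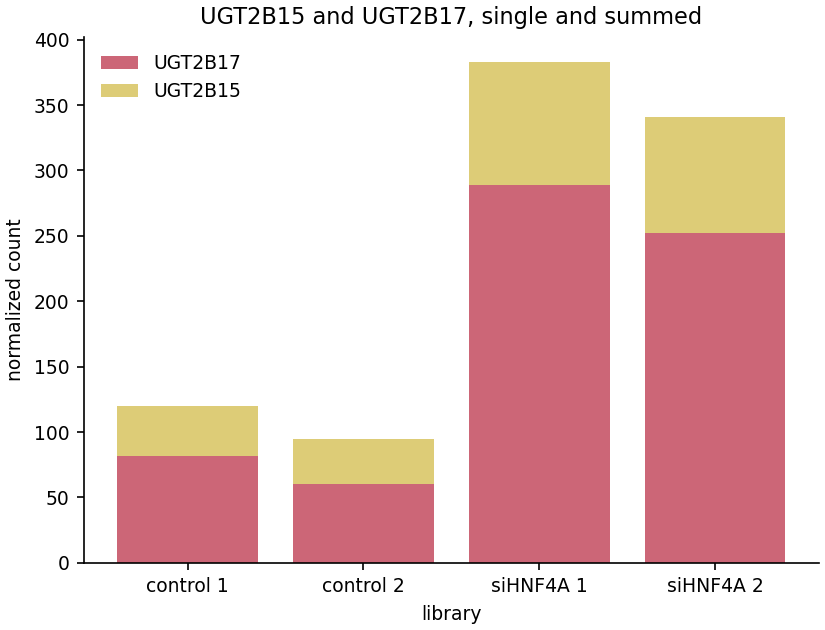
Normalized counts of UGT2B17 and UGT2B15 stacked for each of the 4 libraries; the height of a bar is their sum. The sums reach 119.7 and 94.4 in the control libraries and 383 and 341 in the siHNF4A libraries, and both parts are taller in each siHNF4A bar.

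The depth behind these values is modest. In each library the ratio of the 2 genes' values equals a ratio of whole numbers to within 1e-06. With the multiple set by the most frequent low value among genes seen in 1 library only, taken as about 1 read (1.23, 1.11, 0.90 and 1.01 normalized counts in control 1, control 2, siHNF4A 1 and siHNF4A 2), this gives 67 reads for UGT2B17 and 31 for UGT2B15 in control 1, and 54 and 31 in control 2. The same steps give 321 and 105 reads in siHNF4A 1, and 249 and 88 in siHNF4A 2. UGT2B17 thus took 68.4% of the pair's 98 reads in control 1 (exact 95% binomial interval 58.2% to 77.4%) and 63.5% of 85 in control 2 (52.4% to 73.7%). It took 75.4% of 426 reads in siHNF4A 1 (71.0% to 79.4%) and 73.9% of 337 in siHNF4A 2 (68.9% to 78.5%). The share was higher in both knockdown libraries than in both controls. The shares are a description with no test, since they come from the values that chose the members. The intervals cover counting error only, and the shares are not per length.

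The other 3 UGT2B members were barely detected. UGT2B7, the main UGT2B enzyme of liver and an opioid- and steroid-conjugating one, was at 5.31, 0, 3.95 and 1.33 in control 1, control 2, siHNF4A 1 and siHNF4A 2. UGT2B10, which forms N-glucuronides of nicotine and other amines, was at 2.59, 1.18, 2.87 and 1.07 in the same order. UGT2B11 was at 0, 1.11, 0.90 and 0, that is, at most about 1 read. The knockdown and control values overlapped for each of the 3, none passed the filter, and no difference was detectable at this depth. Their sum was 7.90 and 2.29 in the controls and 7.72 and 2.40 after knockdown. The sum of all 5 UGT2B members was 112 ± 21.9 and 367 ± 33.4 (SD, n = 2 each), a log2 difference of 1.71 (SE 0.22), and nearly all of it came from UGT2B17 and UGT2B15.

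Along the UGT2 cluster, in the order of the RefSeq annotation, UGT2B17 and UGT2B15 come first and UGT2B10 follows. Next is UGT2A3, the only other gene of the cluster that passed the filter, at 35.4 and 26.7 in the controls and 37.7 and 34.4 after knockdown. Its groups overlapped and its log2 difference of 0.22 was not past the threshold (adjusted p = 0.697). UGT2B4 and UGT2A1, at the far end, were at 0 in 3 of 4 libraries each, with 1.51 in siHNF4A 1 and 2.02 in siHNF4A 2. Of the genes that flank the cluster, chosen by position after the values were seen, YTHDC1 had a log2 difference of 0.09 (adjusted p = 0.410) and SULT1B1 of 0.29 (adjusted p = 0.623). The serine protease gene TMPRSS11E, next to UGT2B17 on that side, was between 0.91 and 1.65 in every library.

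Among the UGT1A members, UGT1A6 stood far above the other 2 in counts. It conjugates small planar phenols and serotonin. Its normalized counts were 24014 and 26710 in the controls and 26918 and 27474 after knockdown. The knockdown libraries lay just above control 2, with means of 25362 ± 1907 and 27196 ± 393 (SD, n = 2 each) and a log2 difference of 0.10 (SE 0.06). The gap between control 2 and siHNF4A 1 was smaller than the gap between the 2 controls, and the log2 difference was 0.03 without control 1 and 0.18 without control 2.

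UGT1A10, an enzyme of the intestine and stomach that is nearly absent from liver, had control values of 919 and 898 normalized counts and knockdown values of 1336 and 1338. The groups were clearly apart: 909 ± 14.7 and 1337 ± 1.24 (SD, n = 2 each). The ratio was 1.47 and the log2 difference 0.56 (SE 0.08), at rank 1253 from the highest.

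UGT1A1, the bilirubin-conjugating enzyme, went the other way. It was at 31.8 and 28.9 in the controls and at 15.3 and 9.11 after knockdown, about 26, 26, 17 and 9 reads. Both knockdown values were below both control values, with means of 30.3 ± 2.03 and 12.2 ± 4.36 (SD, n = 2 each). The knockdown mean was 40.2% of the control mean and the log2 difference -1.29 (SE 0.41), the 90th lowest of the 15577 genes. Leaving out 1 library at a time gave -1.63 to -0.94.

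The sum of the 3 UGT1A members was 24965 and 27638 in the controls and 28270 and 28821 after knockdown, a log2 difference of 0.12 (SE 0.07) that was 0.05 without control 1 and 0.19 without control 2. UGT1A6 made up 95.2% to 96.6% of this sum in the 4 libraries, a share that is not per length, so the sum followed UGT1A6. Since the UGT1A genes share their later exons and overlap in the annotation, reads in the shared exons cannot be assigned to 1 of them, and how they were counted is not given in the sources used here.

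**Figure D2:**
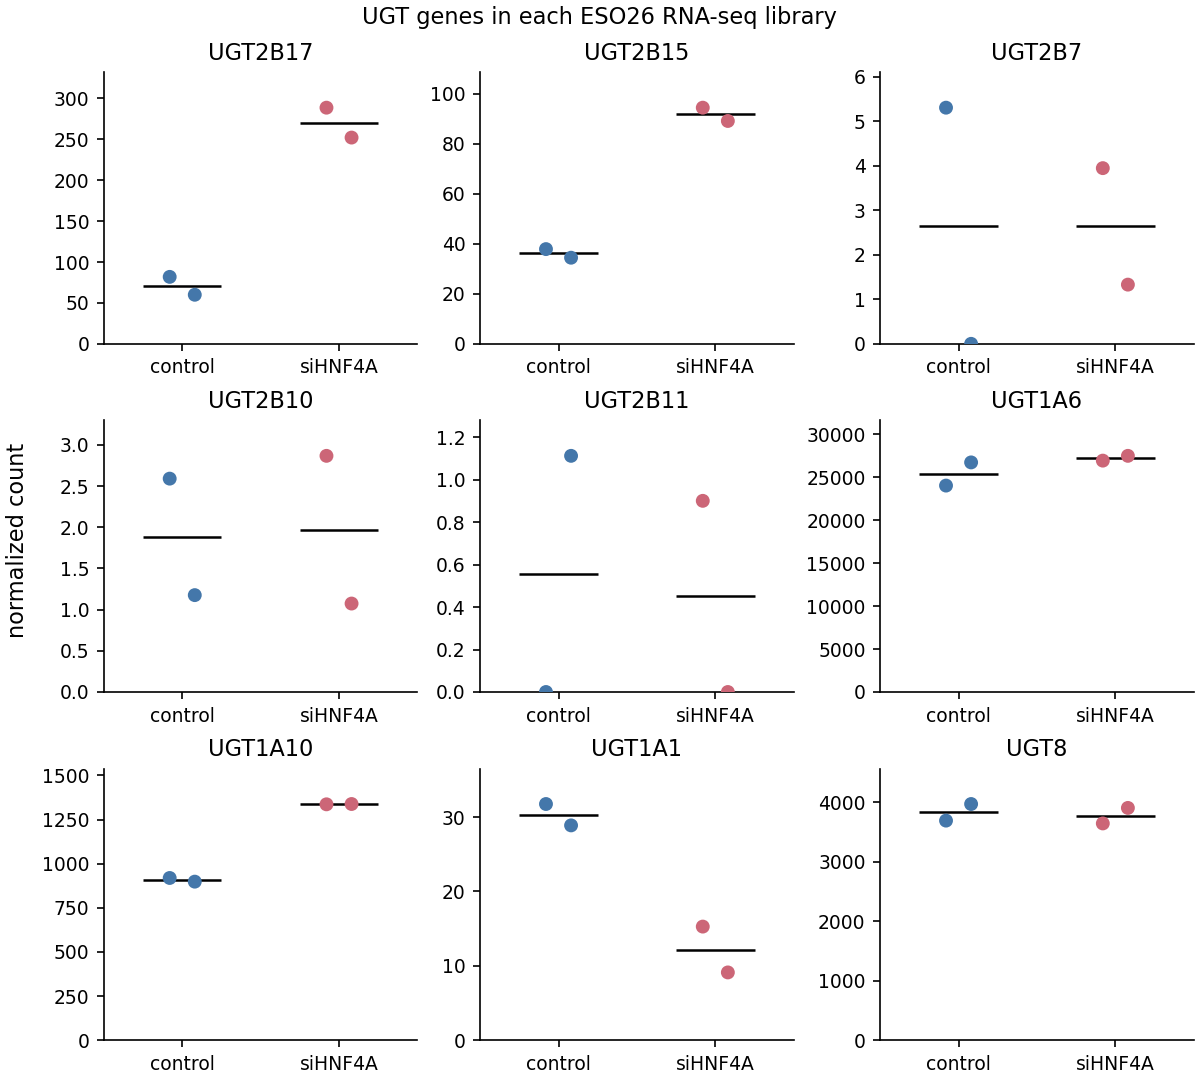
Normalized counts of the 9 members in the 4 libraries, 1 panel per gene with its own linear axis, control libraries and siHNF4A libraries as points in separate colours with a line at each group's mean. The siHNF4A points lie above the control points for UGT2B17, UGT2B15, UGT1A10 and UGT1A6 and below them for UGT1A1, and they overlap for UGT8 and the 3 genes near 0.

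By their first exons the genes follow the order UGT1A8, UGT1A10, UGT1A7, UGT1A6, UGT1A5, UGT1A4, UGT1A3 and UGT1A1 along the chromosome, with UGT1A9 not analysed here. The log2 differences in that order were 0.26, 0.56, 0.89, 0.10, -1.10, -0.03, -0.01 and -1.29. The 4 genes at the upstream end were positive, and at the downstream end UGT1A5 and UGT1A1 had lower values in both knockdown libraries. The groups did not overlap for these 6 of the 8 genes, as for 57.0% of all genes tested. UGT1A4 and UGT1A3 were close to no difference with overlapping groups, and both turned slightly positive (0.01 and 0.03) after rescaling to equal totals. This order was noticed after the values were seen and was given no test.

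UGT1A8, an intestinal enzyme close in sequence to UGT1A10, was at 585 and 566 in the controls and 660 and 721 after knockdown (adjusted p = 0.115). UGT1A7, found in stomach and esophagus, was at 9.80 and 15.6 and then at 25.2 and 22.3 (adjusted p = 0.201), on 8 to 28 reads. UGT1A5 was at 17.1 and 22.2 and then at 8.99 and 8.10 (adjusted p = 0.141), on 8 to 20 reads. None of these 3 passed the threshold. The table held 10 other UGT genes, of which 6 were tested and 0 were past the adjusted threshold by limma, with 2 at an unadjusted p under 0.05; the medians were a log2 difference of 0.10 for the 6 and -0.0073 for all genes. UGT3A1 and UGT3A2, of a family that uses other sugars, were at 2.54 or less in every library. All 8 UGT1A genes of the table summed to a log2 difference of 0.12, the 8 UGT2A and UGT2B genes to 1.50 and all 19 UGT genes to 0.12; these wider sums were added after the data were seen.

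**Figure D3:**
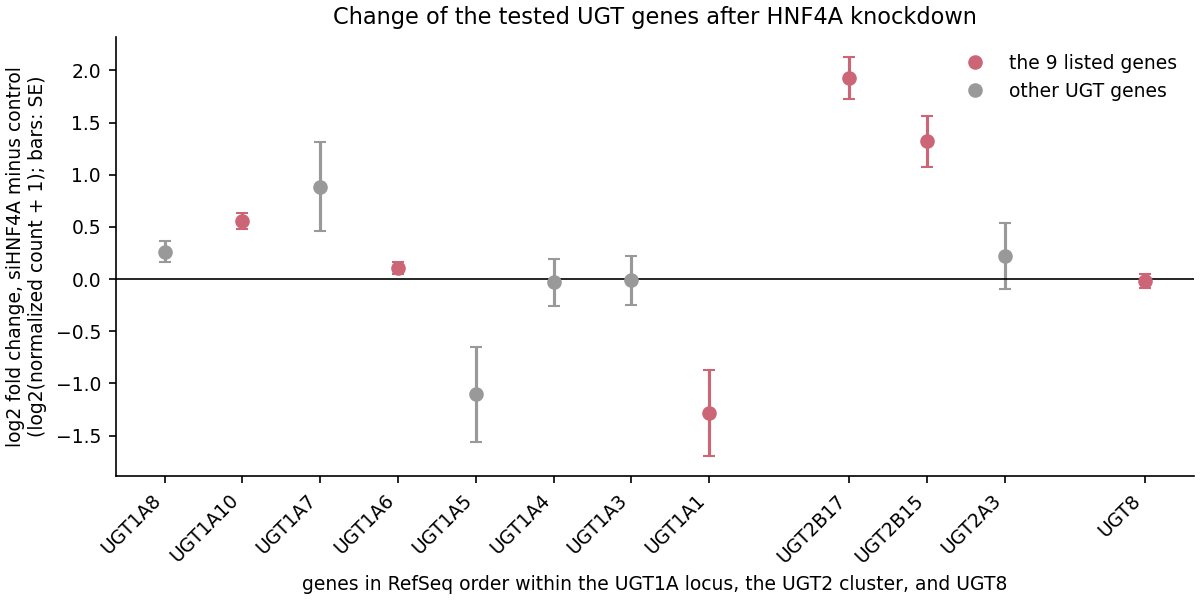
Log2 difference (siHNF4A minus control, on the log2 scale of normalized count + 1) of each tested UGT gene, placed in its order along the UGT1A locus, the UGT2 cluster and UGT8, with bars of 1 standard error; members and other UGT genes are marked apart. UGT2B17 at 1.93 and UGT2B15 at 1.32 are the highest points, and UGT1A1 at -1.29 and UGT1A5 at -1.10 the lowest.

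Flanking the UGT1A locus, the kinase gene DGKD was higher after knockdown (log2 difference 0.41, adjusted p = 0.0063) and the centromere protein gene HJURP was lower (-0.28, adjusted p = 0.0366). DGKD just missed the threshold without siHNF4A 1 (adjusted p = 0.0501), and HJURP was not past it without control 2, siHNF4A 1 or siHNF4A 2 (0.0659 to 0.210), with equal totals (0.0575) or with quantile normalization (0.0638). USP40, a deubiquitinase gene on the DGKD side, was not past the threshold (0.13, adjusted p = 0.403), nor was MROH2A (1.27, adjusted p = 0.204), whose value of 54.5 in siHNF4A 2 stood above 7.35 to 18.5 in the other libraries. These genes were also picked by position after the values were seen.

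UGT8 was at 3690 and 3969 in the controls and 3643 and 3903 after knockdown. The libraries of the groups alternated, and the means of 3830 ± 197 and 3773 ± 184 (SD, n = 2 each) differed by less than the spread within either group. The log2 difference was -0.02 (SE 0.07), and it turned to 0.02 with equal totals and 0.03 with quantile normalization. Its neighbours ARSJ, a sulfatase gene, and CAMK2D, a kinase gene, were both past the threshold (0.38, adjusted p = 0.0267, and 0.41, adjusted p = 0.0067), ARSJ not without control 2, siHNF4A 1 or siHNF4A 2 (0.0629 to 0.128), and NDST4 on the far side was at 0 in all 4 libraries. Summed over all 9 members the counts were 28783 and 31703 in the controls and 32303 and 33068 after knockdown, a log2 difference of 0.11 (SE 0.07), or 0.04 without control 1 and 0.18 without control 2. Most of the sum was UGT1A6 and UGT8.

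Genes of glucuronidation, UGT regulation, steroid metabolism and galactolipids were followed in lists drawn up with earlier results of these data known. The shares below were not tested and support nothing about the lists. Of 71 tested genes on 6 lists, including the other UGT genes, 17 were past the threshold (23.9%, against 14.1% of all genes tested), 6 higher and 11 lower (against 6.02% and 8.11% of all genes), with a median log2 difference of -0.05. Without siHNF4A 1 the number was 11, and without siHNF4A 2 it was 8. None of the 17 was one of the 6 other UGT genes.

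UDP-glucuronic acid is made in the cytosol from UDP-glucose and carried into the endoplasmic reticulum. Of the 12 genes for its supply and for removal of the conjugate, 1 was higher and 4 were lower (41.7%, against 14.1% of all genes), with a median log2 difference of -0.15. SLC35D1, a UDP-glucuronic acid carrier of the endoplasmic reticulum, fell from 1120 and 1056 to 758 and 735 (log2 difference -0.54, adjusted p = 0.0037). HK1, a hexokinase that feeds glucose into the pathway, rose from 339 and 378 to 575 and 551 (0.65, adjusted p = 0.0054). The phosphoglucomutase-family gene PGM2 (-0.32, adjusted p = 0.0229), the isomerase GPI (-0.24, adjusted p = 0.0266) and the nucleotide-sugar carrier SLC35D2 (-0.27, adjusted p = 0.0400) were also lower. PGM2 (adjusted p = 0.0673 to 0.127) and GPI (0.108 to 0.125) did not pass the threshold without control 2, siHNF4A 1 or siHNF4A 2, nor did SLC35D2 without any 1 of the 4 libraries (0.0578 to 0.147). SLC35D2 was also not past it with equal totals (0.0640) or quantile normalization (0.0749), nor GPI with quantile normalization (0.0518). The enzymes that make the cosubstrate, UGP2 (log2 difference 0.04) and UGDH (0.12), and the deconjugating enzyme GUSB (0.04) were not past it.

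Glucuronides leave cells through ABC transporters. Of 7 tested transport genes, 0 were higher and 2 were lower (28.6%, against 14.1% of all genes), with a median log2 difference of -0.21. ABCC4, a basolateral organic anion pump, fell from 2069 and 1994 to 1487 and 1552 (-0.42, adjusted p = 0.0053). ABCC2, the apical pump for bilirubin glucuronides, fell from 1078 and 1204 to 847 and 897 (-0.39, adjusted p = 0.0210), and was not past the threshold without control 2, siHNF4A 1 or siHNF4A 2 (adjusted p = 0.0598 to 0.112). ABCC3 (-0.08) was not past it.

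Steroids are substrates of UGT2B15 and UGT2B17. Of 22 listed genes of steroid metabolism 12 were tested, 2 were higher and 1 was lower (3 of 12, against 14.1% of all genes), with a median log2 difference of 0.15. AKR1C2, which reduces dihydrotestosterone, rose from 747 and 855 to 1251 and 1372 (0.71, adjusted p = 0.0016). AKR1C1 rose as well (0.43, adjusted p = 0.0117), a call lost without siHNF4A 2 (adjusted p = 0.0795). AKR1C1 and AKR1C2 are close copies whose reads can be split, and together they were at 2345 and 2727 in the controls and at 3493 and 3782 after knockdown, a log2 difference of 0.52. AKR1C3, another enzyme of the family, was not past the threshold (0.06). Summed from AKR1C1 to AKR1C4, most of it AKR1C3, the genes were at 17116 and 19601 in the controls and 19881 and 20373 after knockdown. The log2 difference of that sum was 0.14. HSD17B11, a dehydrogenase of androgen metabolism and lipid droplets, was lower (-0.38, adjusted p = 0.0070).

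Of 24 listed regulators of UGT genes 20 were tested, 3 were higher and 2 were lower (5 of 20, against 14.1% of all genes), with a median log2 difference of 0.08. The vitamin D receptor gene VDR fell from 1805 and 2027 to 1247 and 1346 (-0.56, adjusted p = 0.0028). HNF4G, the paralog of HNF4A, rose from 1380 and 1419 to 1755 and 1803 (0.35, adjusted p = 0.0128), a call lost without siHNF4A 1 or siHNF4A 2 (adjusted p = 0.0543 and 0.0826). FOXA3, a forkhead factor, was also higher (0.52, adjusted p = 0.0270), but not past the threshold without control 1, siHNF4A 1 or siHNF4A 2 (adjusted p = 0.0901 to 0.110). The estrogen receptor gene ESR1 was at 0 in all 4 libraries, and the xenobiotic and bile acid receptor genes NR1I2 and NR1H4 were at 2.22 or less. The dioxin receptor gene AHR (-0.05) and the intestinal factor CDX2 (0.07) were not past the threshold.

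UGT8 acts on ceramide, and of the 14 galactolipid and ceramide genes 0 were higher and 2 were lower, 14.3% in all and so about the 14.1% of all genes, with a median log2 difference of -0.11. The ceramide synthase genes CERS6 and CERS2 were the 2: CERS6 fell from 8854 and 8680 to 5790 and 5872 (-0.59, adjusted p = 2.09e-04) and CERS2 from 3424 and 3549 to 2667 and 2523 (-0.43, adjusted p = 0.0030). The galactosylceramidase gene GALC (-0.06) and the sulfotransferase gene GAL3ST1 (-0.26) were not past the threshold.

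**Figure D4:**
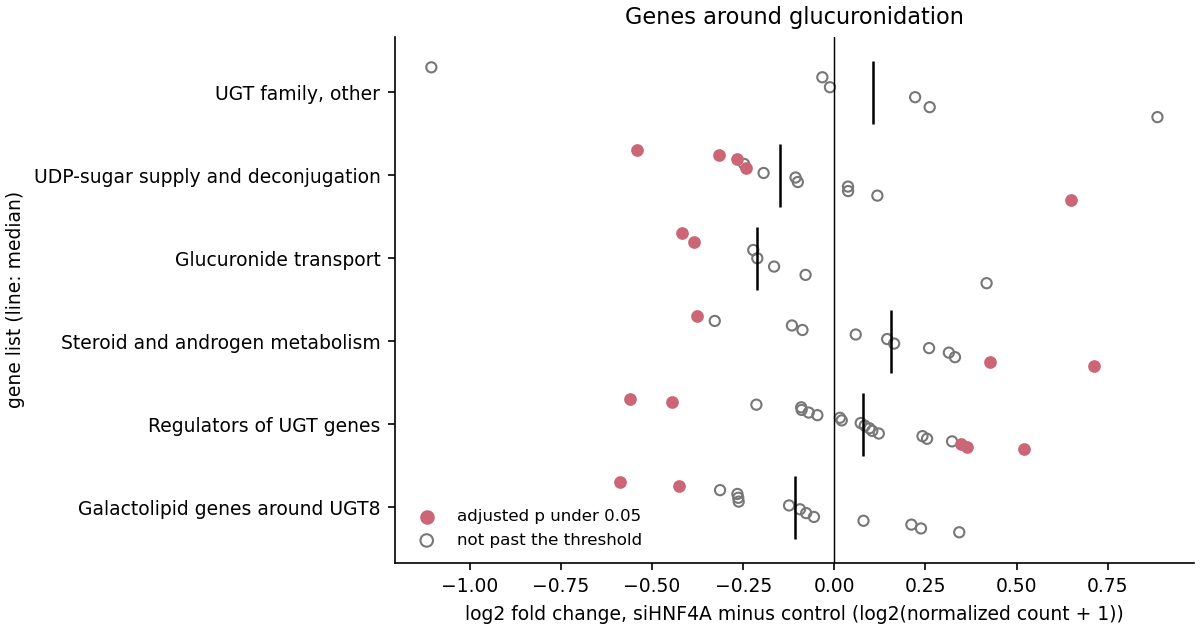
Log2 difference (siHNF4A minus control) of each tested gene, in 1 row per list, with filled points for genes past an adjusted p of 0.05 and a bar at the list median. The medians lie between -0.21 for transport and 0.15 for steroid metabolism, and 17 of the 71 points are filled.

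The genes whose pattern was nearest to UGT2B17 were found by the distance between the log2 values of the 4 libraries after each gene's own mean was taken off. NEURL1, a ubiquitin ligase of the Notch pathway, was nearest at a distance of 0.157, with 63.2 and 41.3 in the controls and 232 and 193 after knockdown. RP11-517C16.2 (0.232), the kinesin gene KIF6 (0.281) and CTD-2006K23.1 (0.281) were also among the 5 nearest. UGT2B15 was the 41st nearest at 0.651. With 4 libraries in 2 groups, this likeness describes little more than the size and direction of the group difference.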

How the data were processed

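The table holds RNA-seq of 4 libraries of ESO26 cells, 2 control and 2 siHNF4A. Its values are the authors' deposited normalized counts, treated as a signal; the normalization and counting methods are not given in the sources used here, and the submitters' processing notes name hg19, Bowtie, Bowtie2, Trim Galore, Picard and MACS2 without roles. Whole reads were not recovered over the table as a whole, so no count model was used; UGT2B17 and UGT2B15 gave whole reads, and read numbers printed for other UGT genes are values divided by that of 1 UGT2B17 read, rounded. Library totals divided by the value of 1 UGT2B17 read gave relative depths of 1, 1.12, 1.34 and 1.19 (control 1, control 2, siHNF4A 1, siHNF4A 2). The columns show the group and number of each library.

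From these values log2(normalized count + 1) was computed, genes with a mean of at least 10 were kept, and limma 3.58.1 (R 4.3.3) was fitted to all of them (lmFit, eBayes with an intensity trend), with Benjamini-Hochberg adjustment and a threshold of 0.05; it was tested on simulated data. Fold differences on this scale understate the change of low genes. An exact permutation test of 2 against 2 libraries cannot go below p = 0.333, so none was used. Standard deviations, sums and ratios come from the deposited scale. The log2 difference of a sum is that between group means of log2(sum + 1). Its SE comes from the plain pooled variance of the libraries, whereas the SE of a single gene is the moderated one of limma. Same-numbered libraries did not deviate together (r = -0.019 over 15577 genes), so the fit has no block.

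The members and lists were chosen with earlier results of these data known, and the motifs, flanking genes, read equivalents and wider sums after the data were seen. The genes named are the 9 members, HNF4A, the other UGT genes, up to 4 genes past the threshold with the smallest p from each list, and the 5 genes nearest UGT2B17 in pattern; SLC35D2 and FOXA3, the remaining calls of their lists, and genes given only as not past the threshold were added after their values were seen. Promoter windows came from RefSeq (GRCh38.p14) and were aligned with Biopython 1.88. Alternatives were other pseudocounts, scalings, filters, no variance trend, a replicate block and leaving out each library. Peaks near the members were not analysed here, and results for some genes that the rule names and for 1 motif are not reported here.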

Additional observations from a re-analysis of the deposited data

How the results depend on the processing

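With 2 libraries a group, each value rests on few libraries, and the low members rest on few reads. Over all genes, the 2202 calls became 726 with no filter on low values (30247 tested) and 0 without a variance trend, where 3524 genes had an unadjusted p under 0.05 against 4504 with the trend; with 1 library left out they ranged from 1013 to 2449. The 17 calls on the lists became 8 with no filter and 0 without the trend, and ranged from 8 to 17 with 1 library left out. HNF4A kept its log2 difference of -1.97 without the trend, at an adjusted p of 0.0919. The cause of these differences was not tested. The UGT1A members without UGT1A6, a sum added after the data were seen, gave 0.52 against 0.12 with it, since UGT1A6 makes up most of the sum.

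Of 30 values of the 6 tested members under other pseudocounts and scalings, 26 moved by less than 1 SD of the libraries and 4 moved further, namely UGT2B15 with a pseudocount of 5 and with quantile normalization, and UGT1A10 with equal totals and with quantile normalization. Leaving out 1 library cannot move a difference by more than 1 SD with 2 libraries a group, so those values are no check of stability; UGT8 changed sign among them. Of 152 values of the other 17 named genes with all 4 libraries, 129 kept direction and side of the threshold and 23 lost the threshold; with 1 library left out 53 of 68 kept both and 15 lost it; SLC35D2, FOXA3 and the flanking genes are not in these counts. The replicate numbers do not pair the samples; with the replicate number as a block there were 2428 calls over all genes and 18 on the lists.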
